A study of Homo sapiens with 6 samples.

Results

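Genes that make, desaturate, elongate and activate fatty acids were followed in VCaP cells in which NEDD9 was silenced. The set held 10 genes, FASN, ACACA, ACLY, SCD, FADS1, FADS2, ELOVL5, ELOVL6, ELOVL7 and ACSL3, each 1 row of a count table with 58735 gene identifiers. All 10 were among the 13958 genes left by a filter on low counts. These genes were chosen from values measured in this same contrast, so their differences between the groups are given as a description with no test. VCaP cells derive from a human prostate cancer and have a TMPRSS2-ERG gene fusion. The shNEDD9 group comprised 3 libraries of cells stably infected with a short hairpin RNA (shRNA) against NEDD9, a scaffold protein of focal adhesions, and the shNTC group 3 libraries of cells infected with a non-targeting shRNA. Both groups grew in DMEM with 10% foetal bovine serum, which itself carries lipids. The labels describe biological triplicates but name no clone and no second hairpin, so an effect of the hairpin itself and an effect of losing NEDD9 cannot be told apart. Nothing says whether the triplicates were separate infections, so the spread between libraries, and every p-value resting on it, may be that of repeated cultures of 1 infected population.

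Fatty acid synthesis starts in the cytosol, where ATP citrate lyase (ACLY) splits citrate into acetyl-CoA, acetyl-CoA carboxylase (ACACA) turns that into malonyl-CoA, and fatty acid synthase (FASN) joins the units into palmitate. Desaturases of the endoplasmic reticulum then insert double bonds, elongases of the ELOVL family add carbons from malonyl-CoA, and acyl-CoA synthetases such as ACSL3 couple the free acid to CoA so that it can enter membranes and lipid droplets. Many of these genes are known targets of the transcription factor SREBP-1, and prostate cancers are known for making much of their own fat.

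The libraries held 3217276 to 9902002 counts, and TMM scaling factors of 0.9925 to 1.01. A count of 3, taken as the floor, equalled 0.302 to 0.94 in counts scaled to library size (CPM), and the members had 86 to 20145 counts in a library. NEDD9 had 136.7, 137.6 and 135.5 CPM in shNEDD9, against 361.1, 338.2 and 364.2 CPM in shNTC. That is 2.62-fold lower, with no overlap between the groups. A large share of the transcriptome moved in this contrast. By the quasi-likelihood test of edgeR, with p-values adjusted by Benjamini-Hochberg and a threshold of 0.05, 35.5% of the tested genes were called higher in shNEDD9 and 35.9% lower, and in 71.8% the libraries of the 2 groups did not overlap. The median absolute log2 fold change over all tested genes was 0.42. Of the markers for prostate and for this cell line, KLK3, KLK2, HOXB13, KRT8, KRT18, ERG, TMPRSS2 and EPCAM were all detected in every library.

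Of the 10 genes, 9 met the rule for higher and 1, ELOVL7, that for lower, beside the 35.5% and 35.9% of all genes, and all 10 had groups without overlap, beside 71.8%. Since the genes were chosen on this contrast, nothing is read from these counts. The sizes were uneven. SCD, FADS2 and FADS1 were at least 2-fold higher in shNEDD9, whereas FASN, ACACA, ACLY and ELOVL5 had log2 fold changes of 0.21 to 0.38, all smaller than the 0.42 that was the median size over all tested genes. The median over the 10 was 0.54, beside 0.0042 over all tested genes. In bulk RNA, fewer cells that express a gene and less RNA of it per cell cannot be told apart, here and in every comparison that follows.

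**Figure D1:**
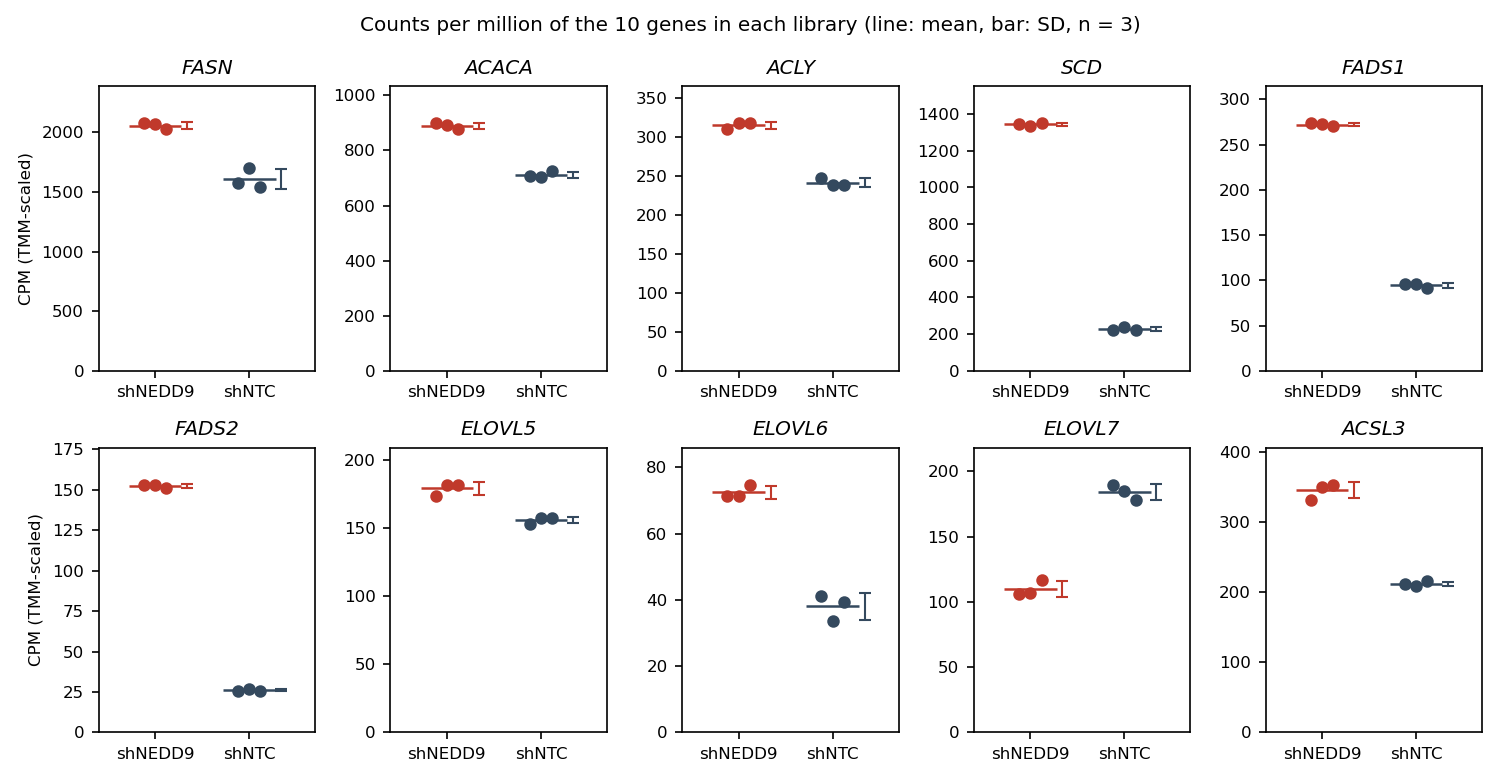
Each panel plots 1 gene's TMM-scaled CPM (vertical axis, from 0) in the 3 shNEDD9 libraries (left) and the 3 shNTC libraries (right), with a line at the mean and a bar for the SD. The groups do not overlap in any panel, and ELOVL7 is the only one of the 10 with the lower points in shNEDD9.

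The 3 enzymes of palmitate synthesis were modestly higher in shNEDD9. ACLY (ENSG00000131473, GRCh38 chromosome 17, 41866908 to 41930542, minus strand) had 309.9, 317.5 and 317.6 CPM in shNEDD9 and 247.8, 237.7 and 238.7 CPM in shNTC. This is 30.2% higher, a log2 fold change of 0.38 (SE 0.03), and the lowest shNEDD9 library stood above the highest shNTC library. ACACA (ENSG00000278540, chromosome 17, 37084988 to 37406818, minus strand), whose product makes the malonyl-CoA used by both FASN and the elongases, had 898.9, 893.3 and 877.0 CPM in shNEDD9, against 705.8, 702.4 and 724.1 CPM in shNTC. It was 24.9% higher, by 0.32 on the log2 scale (SE 0.02). FASN (ENSG00000169710, chromosome 17, 82078333 to 82098332, minus strand), the multi-domain synthase itself, had 2075, 2064 and 2025 CPM in shNEDD9 and 1577, 1701 and 1541 CPM in shNTC. The difference was 28.5%, or 0.36 on the log2 scale (SE 0.02). The shNTC libraries were more scattered for FASN, with an SD of 84.2 CPM against 26.3 CPM in shNEDD9, and the second shNTC library, the shallowest of the 6, was the highest of its group. These 3 genes all lie on chromosome 17 but far from each other. Their log2 fold changes spanned 0.32 to 0.38.

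The desaturases showed the widest separation. SCD (ENSG00000099194, chromosome 10, 100347124 to 100364834, plus strand) encodes stearoyl-CoA desaturase, which makes oleate and palmitoleate from saturated acyl-CoA. It had 1344, 1335 and 1349 CPM in shNEDD9, against 220.2, 238.3 and 224.3 CPM in shNTC, a 5.95-fold higher level (log2 fold change 2.57, SE 0.03). The 3 shNEDD9 libraries lay close together, far above all 3 shNTC libraries. FADS2 (ENSG00000134824, chromosome 11, 61792980 to 61867354, plus strand) encodes the desaturase that takes the entry step from linoleate and alpha-linolenate towards long polyunsaturated acids. FADS2 had 152.8, 153.1 and 150.8 CPM in shNEDD9 and 25.73, 26.93 and 25.89 CPM in shNTC, or 5.84-fold (log2 fold change 2.55, SE 0.06). FADS1 (ENSG00000149485, chromosome 11, 61799625 to 61829318, minus strand), which acts later in the same route to form arachidonate and eicosapentaenoate, had 273.6, 272.4 and 270.2 CPM in shNEDD9, against 95.97, 96.46 and 91.25 CPM in shNTC. Its level was 2.88-fold higher (log2 fold change 1.53, SE 0.04). Among all 13958 tested genes, 67 had a log2 fold change of at least 2.5, SCD and FADS2 among them.

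FADS1 and FADS2 lie on opposite strands and share 490 exon bases in GENCODE 29, which is 4.79% of the exon length of FADS1 and 4.44% of that of FADS2. FADS2 also shares 49 exon bases on the same strand with FEN1, a DNA repair nuclease gene, and FADS1 shares 80 with the microRNA gene MIR1908. The strand setting of the counting was not given in the sources used here, so reads from these shared stretches cannot be assigned to 1 gene with certainty. The same limit holds for ACLY and ACSL3, each with an antisense transcript that covers 2.99% and 1.41% of their exons. Copies that could draw reads were near 0: the SCD pseudogene SCDP1 had 7 counts in all in shNEDD9 and 1 in shNTC, and FADS2P1 had 0 in every library.

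The elongases did not move together. ELOVL6 (ENSG00000170522, chromosome 4, 110045846 to 110199199, minus strand), which lengthens palmitate to stearate and so feeds SCD, had 71.28, 71.50 and 74.79 CPM in shNEDD9 and 41.28, 33.51 and 39.46 CPM in shNTC. It was 86.1% higher (log2 fold change 0.90, SE 0.07), and the second shNTC library was the lowest. ELOVL5 (ENSG00000012660, chromosome 6, 53267398 to 53349179, minus strand), the elongase that works between FADS2 and FADS1, had 173.5, 181.5 and 181.7 CPM in shNEDD9, against 153.2, 157.2 and 156.9 CPM in shNTC. At 15.4% (log2 fold change 0.21, SE 0.04) this was the smallest difference of the 10. ELOVL7 (ENSG00000164181, chromosome 5, 60751791 to 60844389, minus strand), an elongase of saturated very long acyl chains, had 105.8, 107.0 and 116.8 CPM in shNEDD9 and 189.7, 184.5 and 178.0 CPM in shNTC. Every shNEDD9 library stood below every shNTC library, by 40.0% on average, or -0.74 on the log2 scale (SE 0.04). ACSL3 (ENSG00000123983, chromosome 2, 222860934 to 222944639, plus strand), an acyl-CoA synthetase of the endoplasmic reticulum and lipid droplets, had 331.8, 350.4 and 353.2 CPM in shNEDD9, against 211.1, 208.9 and 215.4 CPM in shNTC. It was 63.1% higher (log2 fold change 0.71, SE 0.03), with no overlap.

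Per length of exon, the order of the 10 genes differed between the groups. In shNEDD9, SCD was the most abundant at 250.5 ± 1.3 FPKM (TMM-scaled CPM per kilobase of merged exons), followed by FASN at 219.4 ± 2.81 FPKM (SD, n = 3 each). In shNTC, SCD held the fourth place at 42.45 ± 1.77 FPKM and FASN the first at 171.5 ± 8.99 FPKM (SD, n = 3 each). ACACA and ACLY came next in shNEDD9, at 68.4 ± 0.874 and 60.37 ± 0.843 FPKM, and they stood between FASN and SCD in shNTC, at 54.64 ± 0.896 and 46.27 ± 1.07 FPKM. ACSL3 at 47.67 ± 1.6 FPKM and ELOVL5 at 46.92 ± 1.22 FPKM were neighbours in shNEDD9 whose ranges overlapped, so their order is not resolved there. In shNTC, the ranges overlapped between SCD and ELOVL5 (40.85 ± 0.587 FPKM) and between ELOVL5 and ELOVL7 (40.22 ± 1.28 FPKM). ELOVL7 was eighth in shNEDD9 at 24.01 ± 1.32 FPKM and sixth in shNTC. The low end was FADS2 at 13.81 ± 0.115 FPKM and ELOVL6 at 9.939 ± 0.269 FPKM in shNEDD9, and ELOVL6 at 5.219 ± 0.557 FPKM and FADS2 at 2.375 ± 0.059 FPKM in shNTC. No other pair of neighbours in either order had overlapping ranges.

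The length used bears on the 2 FADS genes most. With the longest transcript in place of all merged exons, FADS1 stood at 60.13 FPKM in shNEDD9 and 20.9 FPKM in shNTC (26.6 and 9.243 FPKM with merged exons). FADS2 stood at 30.01 FPKM in shNEDD9 and 5.162 FPKM in shNTC by that length. SCD stayed first in shNEDD9 but came sixth in shNTC, behind ELOVL5 and ELOVL7.

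**Figure D2:**
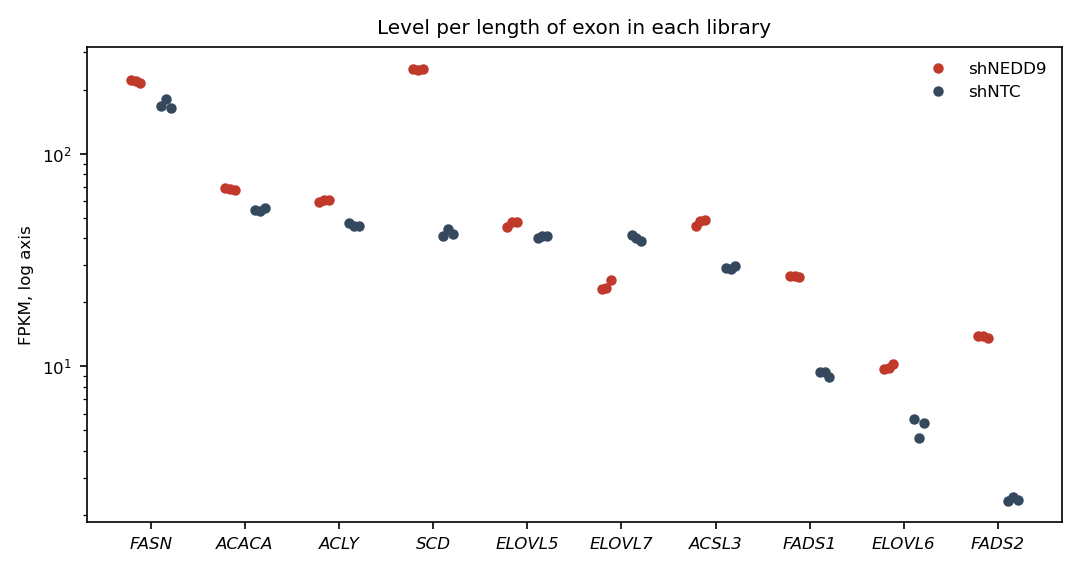
FPKM of the 10 genes on a log axis (vertical), 1 point per library, shNEDD9 in red on the left of each pair and shNTC in dark blue on the right; genes are ordered by their mean in shNTC. SCD stands above FASN in shNEDD9 at 250.5 against 219.4 FPKM, and below FASN, ACACA and ACLY in shNTC at 42.45 FPKM.

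Ratios within a library show the same shifts without any scaling between libraries. SCD over FASN, per length, was 1.13, 1.13 and 1.16 in shNEDD9 and 0.244, 0.245 and 0.254 in shNTC. FADS2 over FADS1 was 0.518, 0.522 and 0.518 in shNEDD9, against 0.249, 0.259 and 0.263 in shNTC. ELOVL6 over ELOVL7 was 0.423, 0.419 and 0.402 in shNEDD9 and 0.137, 0.114 and 0.139 in shNTC. These 3 ratios are made of the values from which the genes were chosen. That none overlapped between the groups is therefore a description only. Together the 10 genes took 0.576%, 0.581% and 0.574% of all counts in shNEDD9, against 0.345%, 0.356% and 0.341% in shNTC. Without SCD the shares were 0.439% to 0.446% in shNEDD9 and 0.319% to 0.332% in shNTC.

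Promoter sequence was a property that the choice of genes had not used. RefSeq windows (GRCh38.p14) from 250 bases before to 50 after a start were found for 9 of the 10 genes, all but FASN, and, for comparison, 34943 windows of all genes. On both strands, the CCAAT box (CCAAT), bound by NF-Y, which is known to assist SREBP, was in a window of 6 of the 9 genes and in 34.6% of all windows. The GC box (GGGCGG), bound by Sp1, was in 8 of 9 genes and 44.9% of all windows. Several genes have more than 1 window, which raises the count per gene against the share per window. Counted per window, the CCAAT box was in 8 of the 13 windows of these genes and the GC box in 10. The windows of ACLY overlap and hold the same CCAAT and GC boxes, and those of FADS2 also overlap. The count per window is therefore not one of separate sequences. The sterol element TCACNCCAC was in 0 of 9 genes and 1.12% of all windows, the E-box CACGTG in 1 (ELOVL5) and 7.23%, and the amino acid response element TGATGNAA in 0 and 3.62%. The windows of FADS2 lie at alternative starts inside the FADS locus. A match is a description of letters and no match says only that these letters were not in this window. The upstream bases outside annotated exons are printed for SCD (2 CCAAT boxes, the largest difference of the 10), ACLY (2 CCAAT and 3 GC boxes) and ELOVL7 (3 GC boxes and no CCAAT box, the gene that was lower). The windows of FADS1 and ELOVL6, both higher in shNEDD9, held no CCAAT box either, and those of FADS2 held 1, after the start. The box counts given for SCD, ACLY and ELOVL7 cover the printed bases alone. Their whole windows held 2, 4 and 4 GC boxes. The sequences run 5′ to 3′ on the gene's strand, with CCAAT and GC boxes of either strand in capitals.
SCD, chr10:100346983-100347123, plus strand: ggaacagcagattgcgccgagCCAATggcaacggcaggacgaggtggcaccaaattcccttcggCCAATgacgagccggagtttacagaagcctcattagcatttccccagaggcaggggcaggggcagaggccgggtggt
ACLY, chr17:41919023-41919272, minus strand: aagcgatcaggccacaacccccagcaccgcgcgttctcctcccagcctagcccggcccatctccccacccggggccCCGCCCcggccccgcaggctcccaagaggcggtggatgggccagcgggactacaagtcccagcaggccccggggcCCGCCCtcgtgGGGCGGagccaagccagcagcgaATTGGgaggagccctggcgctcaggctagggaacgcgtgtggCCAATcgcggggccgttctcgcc
ELOVL7, chr5:60844390-60844519, minus strand: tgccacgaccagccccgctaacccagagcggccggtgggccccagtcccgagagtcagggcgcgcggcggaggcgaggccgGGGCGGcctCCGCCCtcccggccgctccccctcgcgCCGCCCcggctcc

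Close relatives of the 10 genes, which the choice had not included, went both ways. Of 12 paralogs, 10 passed the filter, 3 were called higher and 6 lower, beside 35.5% and 35.9% of all genes, with a median log2 fold change of -0.24. Of the 6 desaturase genes looked at, 5 were tested. SCD, FADS1 and FADS2, themselves chosen on this contrast, were the 3 higher ones, and 2 were lower. SCD5, the second stearoyl-CoA desaturase gene, fell in shNEDD9 to 4.973 ± 0.911 CPM, against 9.87 ± 0.824 CPM in shNTC (n = 3 each, log2 fold change -0.93, SE 0.18, edgeR with Benjamini-Hochberg adjustment, adjusted p = 3.4e-07). FADS3, next to FADS2 on chromosome 11, fell by 0.42 (SE 0.12, adjusted p = 0.000464 by edgeR), a call that was lost without shNTC replicate 3 (-0.29, adjusted p = 0.0569). Among the 7 elongase genes, ELOVL5 and ELOVL6 were higher and 4 were lower. ELOVL1, which makes very long saturated and monounsaturated acids, fell by 0.55 (SE 0.04, 137.8 ± 3.78 CPM in shNEDD9 and 202.5 ± 7.40 CPM in shNTC). ELOVL4, known for the longest acids of retina and skin, fell by 0.48 (SE 0.07), and ELOVL2, which elongates polyunsaturated acids beyond ELOVL5, fell by 0.19 (SE 0.04).

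The second carboxylase gene and the other long-chain synthetases completed the families. ACACB, the carboxylase at the mitochondrial surface whose malonyl-CoA restrains carnitine transfer, rose to 14.5 ± 0.506 CPM in shNEDD9, against 6.953 ± 0.835 CPM in shNTC (n = 3 each, log2 fold change 1.10, SE 0.15, edgeR adjusted p = 2.58e-12). ACSL5 rose by 1.58 on the log2 scale (SE 0.06), with 144.9 ± 2.14 CPM in shNEDD9 and 48.2 ± 1.23 CPM in shNTC. ACSL1, a broad long-chain synthetase, rose by 0.53 (SE 0.04). ACSL4, which prefers arachidonate, was called lower at -0.29 (SE 0.11, edgeR adjusted p = 0.0137), and the call was lost without shNEDD9 replicate 1 or 3 or shNTC replicate 1 (-0.22 to -0.24, adjusted p = 0.0812 to 0.117), and with DESeq2 (adjusted p = 0.102), after thinning (0.294) or with no filter (0.0511). ACSL6, at 1.334 ± 0.390 CPM in shNEDD9 and 1.496 ± 0.262 CPM in shNTC (n = 3 each), was not called (-0.12, SE 0.40, edgeR adjusted p = 0.788). FADS6 and ELOVL3 were too low to test.

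**Figure D3:**
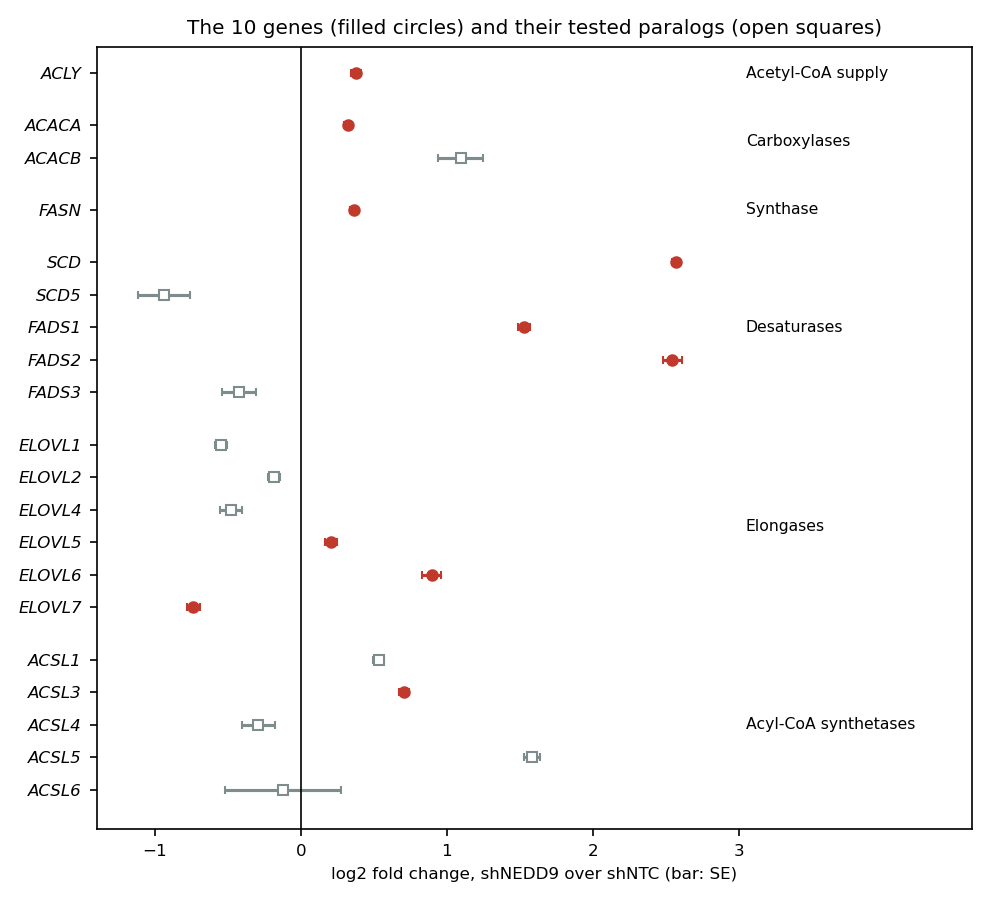
Log2 fold changes, shNEDD9 over shNTC (horizontal axis), with SE bars for the 10 genes (filled circles) and their tested paralogs (open squares), grouped by enzyme family from top to bottom. SCD, FADS2 and FADS1 lie farthest to the right at 2.57, 2.55 and 1.53 with ACSL5 at 1.58, and ELOVL1, ELOVL2, ELOVL4 and ELOVL7 lie left of 0.

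Regulators known to control these genes were called in both directions at shares near those of all genes. Of 22 genes of the SREBP, LXR and ChREBP systems, 20 were tested, of which 8 rose and 9 fell, beside 35.5% and 35.9% of all genes, and their median was -0.02 on the log2 scale. SREBF1, which encodes SREBP-1, rose to 153.8 ± 3.39 CPM in shNEDD9, against 65.34 ± 3.86 CPM in shNTC (n = 3 each, log2 fold change 1.26, SE 0.05, edgeR adjusted p = 3.17e-132). SREBF2, for the sterol-directed paralog, rose by 0.16 (SE 0.03). The escort protein gene SCAP fell by 0.59 (SE 0.04), while INSIG1, which retains SCAP in the endoplasmic reticulum and is itself an SREBP target, rose by 0.93 (SE 0.05). INSIG2 was not called (0.14, SE 0.08, edgeR adjusted p = 0.118). STARD4, a sterol carrier gene, rose by 1.55 (SE 0.14), and MLXIPL, encoding the carbohydrate-responsive factor ChREBP, by 1.44 (SE 0.28) at a low level of 4.853 ± 1.1 CPM in shNEDD9 and 1.555 ± 0.804 CPM in shNTC. On the LXR side, the receptor NR1H2 fell by 0.68 (SE 0.07) and its partner RXRA by 0.89 (SE 0.03). The cholesterol exporter ABCA1, an LXR target, fell by 0.92 (SE 0.25) at a low level of 2.542 ± 0.370 CPM in shNEDD9 and 5.256 ± 1.345 CPM in shNTC. The other LXR receptor, NR1H3, was not called (0.0002, SE 0.25), at 3.434 CPM in shNEDD9 and 3.737 CPM in shNTC. MYLIP was not called either (-0.04, SE 0.16), and ABCG1 was called lower (-0.64, SE 0.09).

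Genes that supply citrate, acetyl-CoA and NADPH were mostly called higher. Of 20 such genes, 18 were tested, of which 14 rose and 1 fell, beside 35.5% and 35.9% of all genes, and their median was 0.41 on the log2 scale. SLC25A1, the carrier that exports citrate from mitochondria to ACLY, rose to 204.2 ± 4.16 CPM in shNEDD9, against 154.9 ± 2.83 CPM in shNTC (n = 3 each, log2 fold change 0.40, SE 0.04, edgeR adjusted p = 3.1e-24). ACSS2, which makes acetyl-CoA from acetate, rose by 0.53 (SE 0.06). The largest increases were in ACAT2, the cytosolic thiolase gene (2.72-fold), GOT1, the cytosolic aspartate transaminase gene (2.38-fold), and MTHFD1, a folate enzyme gene (0.77 on the log2 scale). ME1, the cytosolic malic enzyme gene that yields NADPH, was the 1 that fell, by 0.60 (SE 0.08).

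Of the electron donors of the desaturases and the other steps of the elongation cycle, 14 genes in all, 12 were tested, 4 rose and 4 fell, near the 35.5% and 35.9% of all genes (median log2 fold change -0.09). CYB5R2, a cytochrome b5 reductase gene, rose by 1.11 (SE 0.18) and CYB5B, the cytochrome b5 of the mitochondrial surface, by 1.06 (SE 0.06). CYB5R2 stood at 10.41 CPM in shNEDD9 and 4.704 CPM in shNTC. The most abundant reductase gene of the list, CYB5R3, had 149.2 CPM in shNEDD9 and 158.3 CPM in shNTC. CYB5R3 was not called (-0.07, SE 0.04, edgeR adjusted p = 0.121). CYB5A, the cytochrome b5 of the endoplasmic reticulum that passes electrons to SCD and the FADS enzymes, fell to 100.3 ± 10.2 CPM in shNEDD9, against 145.1 ± 4.80 CPM in shNTC (n = 3 each, log2 fold change -0.51, SE 0.05, edgeR adjusted p = 1.8e-28). CYB5R1 fell by 0.75 (SE 0.07) and HACD2, a dehydratase of the elongation cycle, by 0.64 (SE 0.03). AASDHPPT, whose product attaches the phosphopantetheine arm to FASN, rose by 0.58 (SE 0.07).

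Mitochondria run a separate synthesis that yields lipoate. In that list 10 of 11 genes were tested, 8 rose and 1 fell, beside 35.5% and 35.9% of all genes, with a median of 0.42. The 8 became 5 after thinning to the smallest library, and 6 with DESeq2 or without shNTC replicate 1 or 3. LIPT2, an octanoyl transferase gene, rose by 1.31 (SE 0.22), MECR, the reductase, by 0.59 (SE 0.10) and MCAT, the malonyl transferase, by 0.55 (SE 0.09). LIPT1, a lipoyl transferase gene at 1.724 ± 0.547 CPM in shNEDD9 and 2.462 ± 1.17 CPM in shNTC (n = 3 each), was the 1 called lower (-0.71, SE 0.32, edgeR adjusted p = 0.0382). Its groups overlapped, and the call was lost without shNEDD9 replicate 2 or 3 or shNTC replicate 1 or 3 (-0.77 to -0.39, adjusted p = 0.0651 to 0.391). It was also lost with the replicate number as a block (0.0778), DESeq2 (0.242), limma-voom (0.0731) or no filter (0.0992).

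Among oxidation genes more were called lower than higher, while the shares for uptake genes were nearer to those of all genes. Of 28 genes of fatty acid uptake, binding and activation, 22 were tested, 10 rose and 8 fell, beside 35.5% and 35.9% of all genes (median 0.16). After thinning, 6 uptake genes were called higher and 7 lower. LPL, the lipoprotein lipase gene, rose 1.99-fold, with 82.05 ± 1.45 CPM in shNEDD9 and 41.13 ± 3.20 CPM in shNTC. The transport protein genes SLC27A5 (2.02, SE 0.38) and SLC27A6 (1.44, SE 0.30) rose at levels under 5 CPM. SLC27A1 fell by 1.22 (SE 0.17), ACSF2, a medium-chain synthetase gene, by 1.07 (SE 0.14) and ACOT9, an acyl-CoA thioesterase gene, by 0.90 (SE 0.08). Of 33 genes of mitochondrial and peroxisomal oxidation, 30 were tested, 8 rose and 17 fell, beside 35.5% and 35.9% of all genes, with a median of -0.49. CPT1A, the gatekeeper of mitochondrial entry that malonyl-CoA inhibits, fell to 224.4 ± 3.22 CPM in shNEDD9, against 443.7 ± 2.18 CPM in shNTC (n = 3 each, log2 fold change -0.98, SE 0.03, edgeR adjusted p = 2.09e-214). SLC25A20, the carnitine carrier gene of the next step, fell by 1.65 (SE 0.15). ACADL, a long-chain dehydrogenase gene, fell 3.25-fold at a low level, 1.831 ± 0.857 CPM in shNEDD9 and 6.298 ± 1.206 CPM in shNTC. Against that direction, ECI1 (0.78, SE 0.08), ECHS1 (0.51, SE 0.04) and HADH (0.47, SE 0.05), which act on the shortened chain or its double bonds, rose.

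In a list that mixed fat storage with fat breakdown, more genes were called lower than higher. Of 31 genes of triglyceride synthesis, droplets and lipolysis, 24 were tested, 7 rose and 13 fell, beside 35.5% and 35.9% of all genes (median -0.20). G0S2, an inhibitor of adipose triglyceride lipase, rose by 2.16 (SE 0.21), BSCL2, the seipin gene of droplet formation, by 0.92 (SE 0.30) and HILPDA, another lipase inhibitor, by 0.66 (SE 0.12). BSCL2 was low, at 3.681 ± 0.667 CPM in shNEDD9 and 1.861 ± 0.293 CPM in shNTC. GPAT3, an acyltransferase gene of the first step of glycerolipid synthesis, fell by 2.08 (SE 0.30). It was low, at 1.211 ± 0.545 CPM in shNEDD9 and 4.905 ± 0.309 CPM in shNTC. Of its more abundant relatives, GPAM was called higher (0.46, SE 0.08) and GPAT4 lower (-0.52, SE 0.05). MGLL, the monoglyceride lipase gene, fell by 1.59 (SE 0.04) and PLIN4, a droplet coat gene, by 0.71 (SE 0.21). DGAT2, which makes triglyceride from new fatty acids, fell by 0.62 (SE 0.08). DGAT1 was called lower (-0.20, SE 0.08, edgeR adjusted p = 0.0204). That call was lost without shNEDD9 replicate 3 or shNTC replicate 1 or 2 (-0.12 to -0.20, adjusted p = 0.0541 to 0.226), with DESeq2 (0.105) or with no filter (0.0836). Of 13 genes of AMP-activated kinase, which phosphorylates and inhibits ACACA, 12 were tested, 2 rose and 5 fell, beside 35.5% and 35.9% of all genes (median -0.13). Of its catalytic subunits, PRKAA1 fell by 0.53 (SE 0.04) and PRKAA2 rose by 0.69 (SE 0.11), and PRKAG2, a regulatory subunit gene, fell by 0.79 (SE 0.10). The pseudokinase gene STRADB rose 1.99-fold, whereas its partner CAB39 fell by 0.49 (SE 0.04) and the upstream kinase CAMKK2 by 0.31 (SE 0.04).

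**Figure D4:**
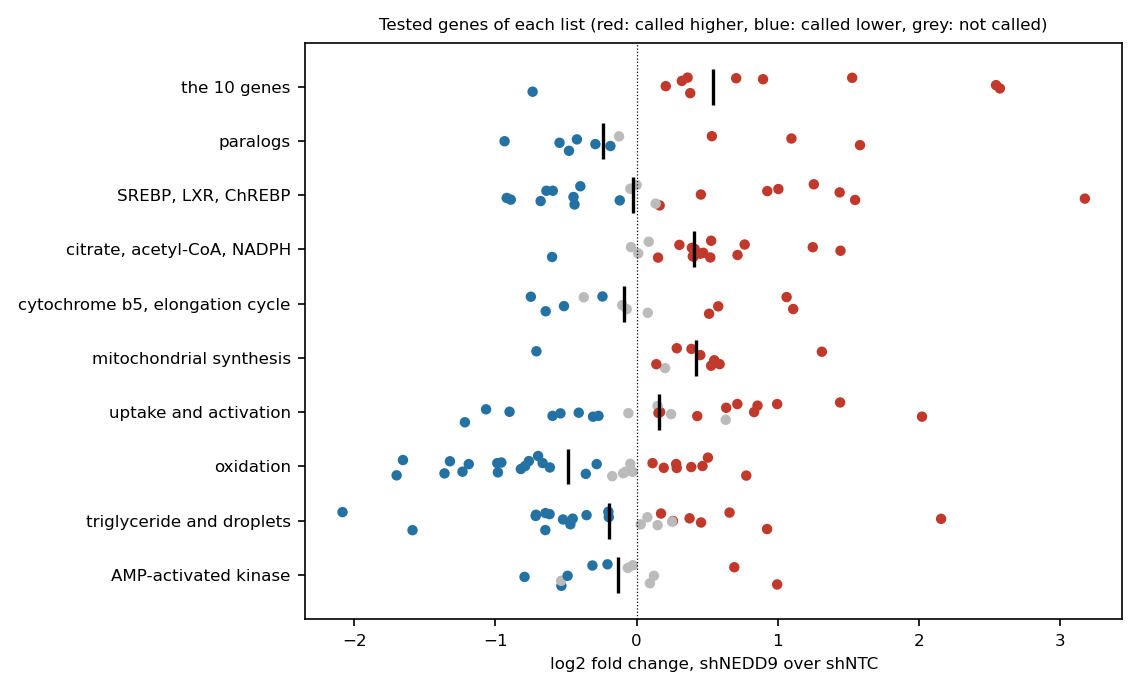
Log2 fold changes, shNEDD9 over shNTC (horizontal axis), of the tested genes of each list (1 point a gene, vertical scatter only for legibility), with red for genes called higher, blue for lower and grey for not called; black bars are list medians. The median was 0.41 for supply genes and -0.49 for oxidation genes, beside 0.0042 for all tested genes.

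Position on the chromosome gave no common picture for the 10 genes. The 10 tested protein-coding genes on either side of SCD had a median log2 fold change of 0.11, with 8 of 20 called higher and 3 lower, beside 35.5% and 35.9% of all genes, while SCD itself was at 2.57. Around the FADS pair the other 19 neighbours had a median of 0.22, with 9 higher and 4 lower, against the same shares of all genes. FEN1, the gene that abuts FADS2, was 2.18-fold higher, and BEST1, chosen after its values were seen, had a log2 fold change of 3.56. TMEM258, on the far side of FEN1, was not called (0.14, SE 0.07, edgeR adjusted p = 0.0605). ACACA lay among genes with a median of 0.48 (14 of 20 higher, 5 lower, beside 35.5% and 35.9% of all genes), which is above its own 0.32. The neighbours of ELOVL7, itself at -0.74, had a median of 0.29 with 10 on either side and of -0.09, the same sign as ELOVL7, with 5 on either side. The medians around FASN (0.04), ACLY (0.15), ACSL3 (-0.14), ELOVL5 (-0.26) and ELOVL6 (-0.19) were each lower than the value of the gene itself. Chromosome 4, which holds ELOVL6, stood apart from the other chromosomes of the 10 genes, with 22.1% of its other genes called higher and 56.8% lower. The medians of the other 6 chromosomes lay between -0.02 and 0.10.

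**Figure D5:**
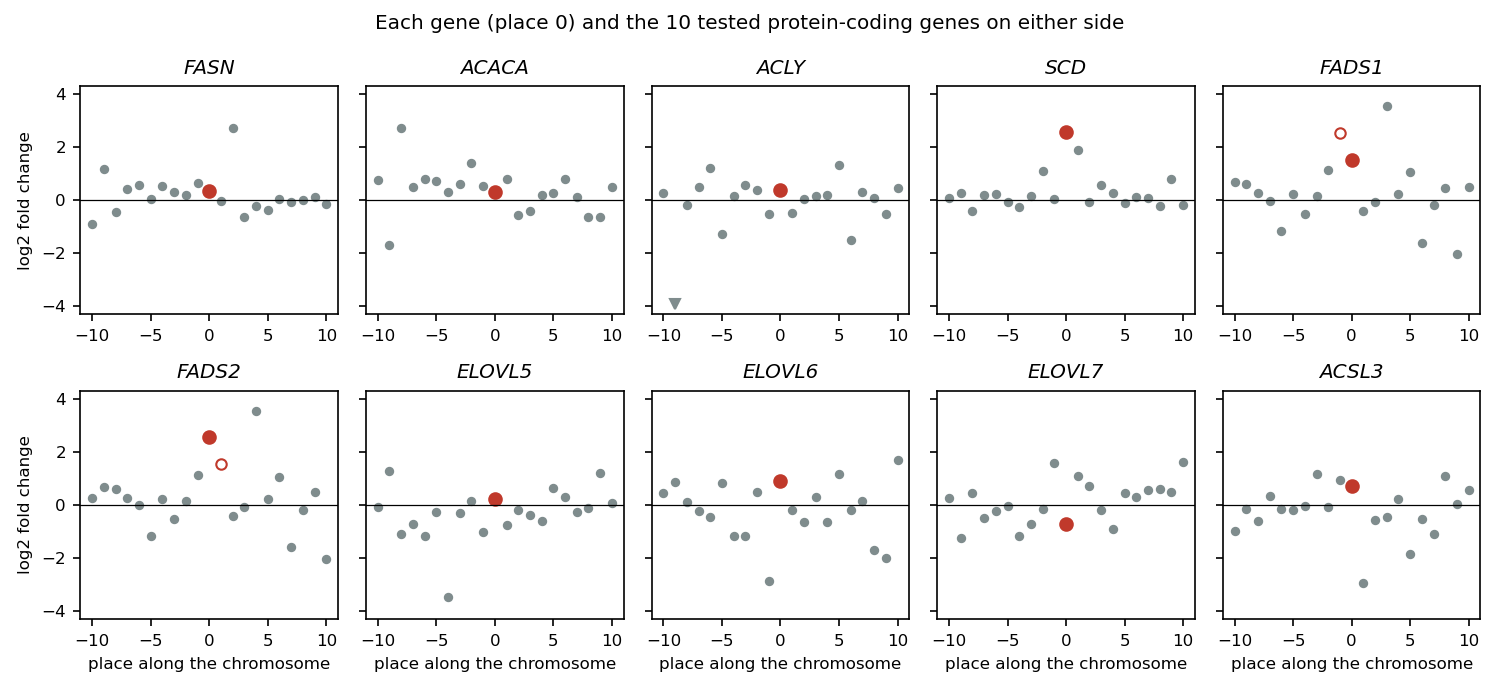
Log2 fold change, shNEDD9 over shNTC (vertical axis), of each of the 10 genes (large red point, place 0) and of the 10 tested protein-coding genes on either side by their order along the chromosome (grey; open red where the neighbour is 1 of the 10 genes). A triangle at the lower edge is a neighbour of ACLY with no counts in shNEDD9, whose fitted value depends on the prior count; SCD at 2.57 stands above all of its 20 neighbours.

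Markers of other cell types that make or store fat were looked at beside these results. Of 9 adipocyte markers 3 were tested. The summed level of all 9 was 90.07 to 92.2 CPM in shNEDD9 and 46.02 to 51.99 CPM in shNTC, most of it LPL. ADIPOQ and RETN had 0 counts in every library. Among those tested, LPL and CFD were called higher, and PLIN1 was called lower (-0.65). The summed 9 hepatocyte markers, mostly ALB, stood at 194.5 to 202.5 CPM in shNEDD9 and 180.4 to 198.9 CPM in shNTC, with APOA2 and CYP3A4 at 0. Of the 3 hepatocyte markers tested, 1 was called higher and 2 lower (median log2 fold change -0.92). Of 11 fibroblast markers the sum was 48.36 to 56.04 CPM in shNEDD9 and 27.48 to 35.39 CPM in shNTC, mostly LUM, with THY1 and FAP at 0. LUM was called higher, while the other tested fibroblast marker, COL1A1, was called lower (-0.55), and COL1A2, too low to test, had 8 counts in all in shNEDD9 and 31 in shNTC. The 10 leukocyte markers summed to 5.689 to 6.635 CPM in shNEDD9 and 18.72 to 25.68 CPM in shNTC, mostly LYZ in shNTC, with CD3E, CD68 and FCGR3A among those at 0. The 7 endothelial markers summed to 9.349 to 10.88 CPM in shNEDD9 and 9.65 to 11.08 CPM in shNTC, with CDH5 at 0. The part of these markers in the results was not tested.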

How the data were processed

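Per the labels' protocols, column-purified RNA went into a stranded library kit for total RNA. The authors deposited raw whole-number counts of reads per gene. STAR 2.5.3a, cutadapt 1.9, Subread 1.6.2, featureCounts and FastQC 0.11.5 were used, and the builds hg19 and GRCh38 are named with no role, per the submitters' processing notes. Neither the annotation release nor the strand setting was given in the sources used here. All 58735 identifiers occur in GENCODE 29 (GRCh38), the source of coordinates and exon lengths. 1 row without an identifier was left out.

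The 10 genes, the gene lists and the rule for named genes were chosen with earlier results of these data known. Samples were grouped by the shRNA in their titles. Differences were fitted on the deposited counts with edgeR 4.0.16 (quasi-likelihood test, robust, TMM factors, filterByExpr with a minimum count of 10) in R 4.3.3, without covariates. p-values were adjusted by Benjamini-Hochberg over 13958 genes and called at 0.05. CPM and FPKM were computed from the deposited counts with TMM factors. The SE is the unmoderated log2 fold change over the square root of F. The spread between libraries beyond counting error, estimated by edgeR as a common coefficient of variation, was 1.65%. For pairs of libraries within a group, chi-square over degrees of freedom was 1.14 to 1.205, little above the level of counting error. All p-values rest on this spread between libraries alone. Intervals and floors cover counting error only. The procedure was tested on simulated data.

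Named by prior choice were, among others, the paralogs, NEDD9, SREBF1, SREBF2, SCAP, INSIG1, INSIG2, SLC25A1, ACSS2, ME1, CPT1A, DGAT1, DGAT2 and CAMKK2. Each other list gave up to 3 called genes with the largest changes in each direction, at a mean of at least 1 CPM in one group. NR1H3, MYLIP, ABCG1, CYB5R3, GPAM and GPAT4 were added after their values were seen. Their own values were not followed over the alternatives. Alternatives were RLE, upper-quartile and total scaling, no filter, a mean of at least 1 CPM, DESeq2 1.42.0, limma-voom (limma 3.58.1), the replicate number as a block, thinning to 3217276 counts, and each library left out. Some genes that these rules took are not reported here. Protein sequences were not analysed here.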

Additional observations from a re-analysis of the deposited data

How the results depend on the processing

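Each of the 10 genes kept its sign under all 15 alternatives to the fit; of the 150 values, 147 moved by less than the spread between replicates and 3 by more (ACACA 0.34 with no filter, FADS2 2.58 and ELOVL5 0.18 after thinning). Of 330 counts of calls, 319 stayed within 1.5 times the main count. After thinning, 5 rather than 8 mitochondrial synthesis genes and 6 rather than 10 uptake genes were called higher. The count of mitochondrial synthesis genes called lower, 1, was 0 with no filter, DESeq2, limma-voom, the block or thinning, and 0 to 1 when libraries were left out. ACSL6, not called in any fit, changed sign to 0.10 without shNEDD9 replicate 2 and to 0.028 without shNTC replicate 3 (range -0.33 to 0.10). Of 985 values of other named genes, 963 kept their call and sign and 20 lost the call. The replicate numbers do not pair the samples (deviations of same-numbered libraries correlated at -0.0061, 0.0067 and 0.023 over 12715 genes, and not every library correlated best with its own number). With the replicate block, 9 of the 10 genes were called higher and 1 lower, as without it, and the call of LIPT1 was lost. Without the block, 35.5% of all tested genes were called higher and 35.9% lower. Since the 10 genes were chosen on this contrast, nothing is read from their calls. In the upstream part of the promoter windows alone, 5 of 9 genes had a CCAAT box, in 7 of their 13 windows, some overlapping, beside 32% of all windows. No scaling moved the median of all genes beyond 0.021. FPKM with the longest transcript as length moved by more than 1 SD in 18 of 20 values. Depth limits low genes most: a count of 3 equalled 0.94 CPM in the shallowest library. The causes of these changes were not tested.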
